A study of Mus musculus with 22 samples.

Results

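AP-1 is a family of dimeric transcription factors, and 7 genes of the Fos, Jun and ATF branches were followed here: Fos, Fosb, Fosl2, Jun, Junb, Jund and Atf3. They were chosen by name from a table of 24537 genes, and all 7 were found in it. Fos proteins bind DNA mainly as partners of Jun proteins, whereas Jun proteins can also pair with each other. Fos, Fosb and Junb are immediate early genes, whose transcription starts within minutes of synaptic activity or growth factor signals without new protein synthesis. In the visual cortex their induction by light after darkness is a long-used readout of activity. Jund is known as the more steadily expressed Jun protein, Fosl2 as a later Fos protein, Jun as a target of stress kinases, and Atf3 as a stress-induced partner of the family that is low in resting tissue.

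The libraries came from the visual cortex of C57BL/6J mice that all carried 73.12 GFAP-cre and RPL22-HA, so in every group, controls included, ribosomes bore a hemagglutinin tag through Rpl22 wherever the GFAP promoter had driven Cre. Tagged ribosomes were pulled down after perfusion with 1% paraformaldehyde, and poly(A) RNA was sequenced from 16 pulldowns and from 5 inputs, which are homogenates of the same region before the pulldown. Normal rearing meant a 12 h light cycle to postnatal day 45 (3 pulldowns), and dark rearing meant 24 h of dark per day from birth to day 45 (4 pulldowns). Other mice spent 10 days in the dark and were taken at day 120 (3 pulldowns). Mice of day 28 with 1 eye deprived for 2 days gave cortex contralateral (3 pulldowns) and ipsilateral (3 pulldowns) to that eye. Each of the 5 groups had 1 input. The series describes its replicates as biological, and the labels do not tie a library to an animal. Dark-reared replicate 2 was not analysed here.

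Values are FPKM, which scale fragments to transcript length and library size, so that levels can be set side by side between genes. They were deposited to 0.1 FPKM. Depth, estimated from the steps between low values, ran from 21.1 to 51.4 M reads in 20 libraries, and contralateral replicate 2 gave no estimate. At the median depth a step of 0.1 FPKM stood for about 7.19 reads of Fos and 22.3 reads of Fosl2. The label of the pulldown was checked against markers. Over input, all 15 astrocyte markers rose (median 2.67 on the log2 scale) and all 16 neuron markers fell (median -3.00), by limma with Benjamini-Hochberg adjustment. Neuron RNA was reduced and not absent: the 16 neuron markers summed to between 285.6 and 1288 FPKM in the pulldowns and to between 3810 and 4342 FPKM in the inputs. Oligodendrocyte lineage markers were higher in the pulldown as well. Of 8 oligodendrocyte markers 5 rose and 0 fell (median 0.68), and of 6 precursor markers 5 rose and 1 fell (median 0.79). The oligodendrocyte sum, 1337 to 3490 FPKM in the pulldowns and 1010 to 1766 FPKM in the inputs, lay above the input of its own group in every pulldown, and so did the precursor sum, 165.1 to 275.7 against 78.9 to 122.2 FPKM. All of these cells can express AP-1 genes, so the pulldown values hold unknown shares of neuronal and oligodendrocyte RNA.

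The promoters of 4 of the genes are printed, those of Fos, Fosb and Junb, whose levels lay lower after dark rearing, and that of Jun, whose level hardly differed. Fosl2 lay lower too and is not printed, because its RefSeq start lies 671 bases inside the annotated gene. Each is the 250 bases before the start, from RefSeq on GRCm38.p6, written 5′ to 3′ on the strand of the gene. Capitals mark TGACG, the core that forms the first letters of the full cyclic AMP response element TGACGTCA, then TGACATCA, an AP-1-like element, and TATAAA, the TATA box.
Fos (chr12:85473640-85473889, plus strand): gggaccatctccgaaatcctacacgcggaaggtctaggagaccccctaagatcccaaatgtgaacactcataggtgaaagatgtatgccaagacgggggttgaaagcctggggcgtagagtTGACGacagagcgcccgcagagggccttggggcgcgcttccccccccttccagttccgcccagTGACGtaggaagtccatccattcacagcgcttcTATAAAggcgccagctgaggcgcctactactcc
Fosb (chr7:19310046-19310295, minus strand): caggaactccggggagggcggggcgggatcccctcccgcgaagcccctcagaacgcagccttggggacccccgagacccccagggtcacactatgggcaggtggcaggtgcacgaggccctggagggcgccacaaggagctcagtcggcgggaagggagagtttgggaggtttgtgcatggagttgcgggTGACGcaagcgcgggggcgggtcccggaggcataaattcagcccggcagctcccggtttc
Junb (chr8:84978749-84978998, minus strand): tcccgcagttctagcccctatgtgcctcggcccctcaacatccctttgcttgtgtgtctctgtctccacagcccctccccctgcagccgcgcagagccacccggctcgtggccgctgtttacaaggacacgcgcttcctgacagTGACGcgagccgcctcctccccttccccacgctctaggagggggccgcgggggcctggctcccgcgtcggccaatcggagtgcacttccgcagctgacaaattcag
Jun (chr4:95052223-95052472, minus strand): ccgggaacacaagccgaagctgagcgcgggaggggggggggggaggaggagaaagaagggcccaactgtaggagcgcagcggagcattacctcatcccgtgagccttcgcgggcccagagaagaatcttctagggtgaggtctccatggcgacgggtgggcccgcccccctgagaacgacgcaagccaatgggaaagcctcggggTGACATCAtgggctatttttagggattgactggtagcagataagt

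The Fos window held TGACG at -129 and again at -66, and TATAAA at -33, counted from the RefSeq start. The Fosb window held TGACG at -60 and the Junb window at -106. The Jun window held TGACATCA at -45 and no TGACG. Both strands were searched for 6 motifs in 32851 RefSeq windows of the same length. TGACG was in 17.8% of them, TGACATCA in 2.93%, TATAAA in 12.4%, TGACGTCA in 1.55%, the AP-1 site TGANTCA in 6.75% and the CArG box, which binds serum response factor, in 1.47%. TGACGTCA, TGANTCA and the CArG box matched in none of these 4 windows. Bases more than 250 upstream of the start were not searched, so these genes may hold such motifs further out. A match is a description of letters and not a shown binding site. The RefSeq start is that of the annotated gene for Fos and Jun, lies 6 bases inside it for Fosb and 30 bases upstream for Junb. For Fosl2, Jund and Atf3 it lies 671 bases inside, 1210 bases upstream and 34706 bases inside, and their windows are not printed. These windows were searched as well. Those of Fosl2, which lay lower after dark rearing, and of Jund held none of the 6 motifs. That of Atf3 held TGACG at -7 on the other strand. Whether TGACG goes with the level in the dark was not tested.

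In the annotation on GRCm38, Fos spans chromosome 12, 85473890 to 85477273, with 4 exons, and Fosb chromosome 7, 19302696 to 19310051, also with 4. Fosl2 lies on chromosome 5, 32135801 to 32157842, and Atf3 on chromosome 1, 191170296 to 191218039. The 3 Jun genes have 1 exon each: Jun on chromosome 4, 95049034 to 95052222, Junb on chromosome 8, 84974484 to 84978718, and Jund on chromosome 8, 70698949 to 70700616. The table gives 1 transcript per gene, so full-length Fosb and its short splice form deltaFosB cannot be separated.

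Among the Fos proteins, Fos had the widest range. Its pulldown levels were 32.7, 54.2 and 80.7 FPKM in normally reared replicates 1 to 3. Dark-reared replicates 1, 4, 5 and 6 had 7.2, 6.2, 8.2 and 8.9 FPKM. After 10 days of dark, replicates 1, 3 and 4 had 9.7, 13.7 and 22.3 FPKM. Every normally reared library thus lay above every library of both dark groups. The contralateral libraries had 5.9, 4.9 and 9.7 FPKM and the ipsilateral ones 13.2, 24.2 and 30.5 FPKM. The 2 sides of the deprived animals did not overlap either. In order of the means, normal rearing (55.9 ± 24.0 FPKM, SD, n = 3) stood above the ipsilateral side (22.6 ± 8.76, n = 3), 10 days of dark (15.2 ± 6.44, n = 3), dark rearing (7.63 ± 1.18, n = 4) and the contralateral side (6.83 ± 2.53, n = 3). Ipsilateral and 10-day libraries overlapped, and so did dark-reared and contralateral libraries. Neither of these pairs of neighbours was tested, and overlap of so few libraries does not show equal levels. Ages differed between the day 28, day 45 and day 120 groups, and age cannot be told apart from treatment across them.

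Fosb, whose truncated form accumulates with repeated stimulation, was low in the pulldowns. It had 1.7, 3.6 and 6.4 FPKM in normal rearing and 0.4, 1.1, 0.8 and 1.9 FPKM in dark rearing. The 10-day group had 2.1, 1.8 and 5.0 FPKM. Its groups overlapped in each of these sets, since normally reared replicate 1 lay below the highest dark-reared library. Contralateral values were 0.3, 0.7 and 0.9 FPKM and ipsilateral ones 0.3, 2.0 and 1.9 FPKM. Fosl2, which encodes Fra-2, ran close to Fosb: 1.4, 4.9 and 4.3 FPKM in normal rearing, 0.5, 0.9, 0.7 and 1.5 in dark rearing, and 1.6, 1.5 and 3.7 after 10 days of dark. The deprived animals had 0.4, 0.8 and 1.2 FPKM of Fosl2 contralaterally and 0.5, 1.5 and 2.0 ipsilaterally. For both genes all neighbours in the order of group means overlapped.

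Among the Jun proteins, Junb, often the partner of Fos in the early response, varied most. It had 34.7, 45.9 and 97.2 FPKM in normal rearing and 12.4, 16.4, 23.4 and 22.2 FPKM in dark rearing. These groups did not overlap. After 10 days of dark it had 31.0, 30.0 and 65.7 FPKM and overlapped normal rearing through replicate 4. On the contralateral side it had 10.2, 19.1 and 12.3 FPKM and on the ipsilateral side 15.1, 59.7 and 21.8 FPKM, so the high ipsilateral mean of 32.2 ± 24.1 FPKM rested on replicate 2.

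Jun and Jund were flat beside them. Jun had 15.9, 9.6 and 24.2 FPKM in normal rearing and 14.7, 14.2, 19.0 and 12.1 FPKM in dark rearing. The other groups gave 16.8, 15.8 and 14.8 FPKM after 10 days of dark, 13.6, 8.4 and 15.1 FPKM contralaterally and 13.8, 11.1 and 17.2 FPKM ipsilaterally. All 5 group means of Jun, 12.4 to 16.6 FPKM, were closer to each other than the 3 normally reared libraries were. Jund had 30.9, 26.5 and 36.9 FPKM in normal rearing and 36.2, 26.9, 37.2 and 34.8 FPKM in dark rearing. It had 55.2, 33.5 and 37.0 FPKM after 10 days of dark, 35.8, 38.7 and 23.6 FPKM contralaterally and 39.7, 46.5 and 25.5 FPKM ipsilaterally. Neighbouring groups overlapped for both genes. Atf3 was at or under 0.3 FPKM in every pulldown and between 0.1 and 0.8 FPKM in the inputs. Its mean of 0.113 FPKM over the pulldowns lay below the filter of 1 FPKM, so 6 of the 7 genes entered the tests.

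**Figure D1:**
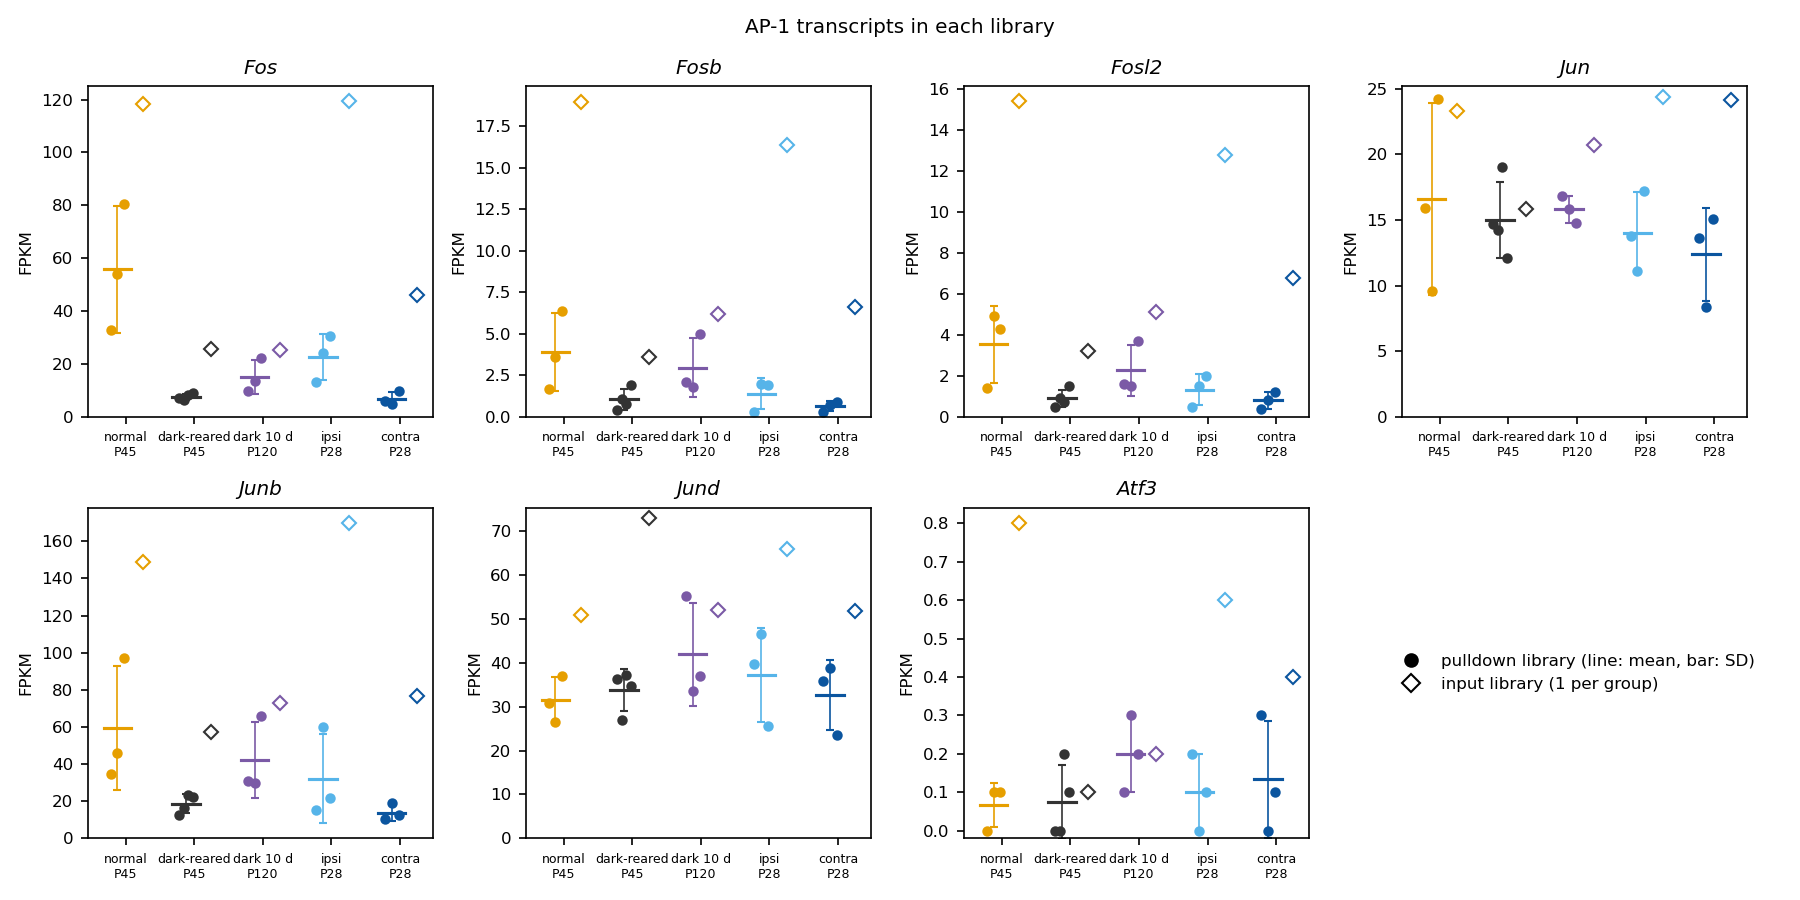
FPKM of each AP-1 gene in 16 pulldown libraries (filled circles, with the group mean as a line and the SD as a bar) and in the 5 inputs (open diamonds), by group, each panel on its own linear scale. Fos in normal rearing, at 32.7 to 80.7 FPKM, lay above all other pulldown libraries, Junb spread widely, and Jun and Jund lay at similar levels in all groups.

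The mix of AP-1 transcripts differed between the groups. In normal rearing the 3 Fos genes made up 30.5% to 43.3% of the summed FPKM of the 7 genes, and in dark rearing 10.8% to 15.1%. They made up 11.5% to 20.8% after 10 days of dark, 8.82% to 18.8% contralaterally and 16.9% to 34.7% ipsilaterally. By mean share Jund was the largest single part in 4 of the 5 groups, with 44.0% ± 4.54 (SD, n = 4) in dark rearing, 48.2% ± 9.27 (n = 3) contralaterally, 35.3% ± 11.4 (n = 3) ipsilaterally and 35.6% ± 11.3 (n = 3) after 10 days of dark, where Junb had 33.9% ± 9.14. In normal rearing Jund had 19.8% ± 5.93 (n = 3). The ratio of Fos to Jun within a library was 2.06 to 5.65 in normal rearing and 0.432 to 0.736 in dark rearing. It was 0.577 to 1.51 after 10 days of dark, 0.434 to 0.642 contralaterally and 0.957 to 2.18 ipsilaterally. This ratio does not depend on how a library was scaled. Its ranges did not overlap between normal and dark rearing, normal rearing and 10 days of dark, or the 2 sides. Levels of Fos alone did not overlap in these comparisons either, so the ratio is not independent of them. Non-overlapping levels in the lower direction were found for 9.06%, 4.6% and 1.37% of all genes, in the same order. No test was made of the ratio or of the shares of the 7 genes.

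**Figure D2:**
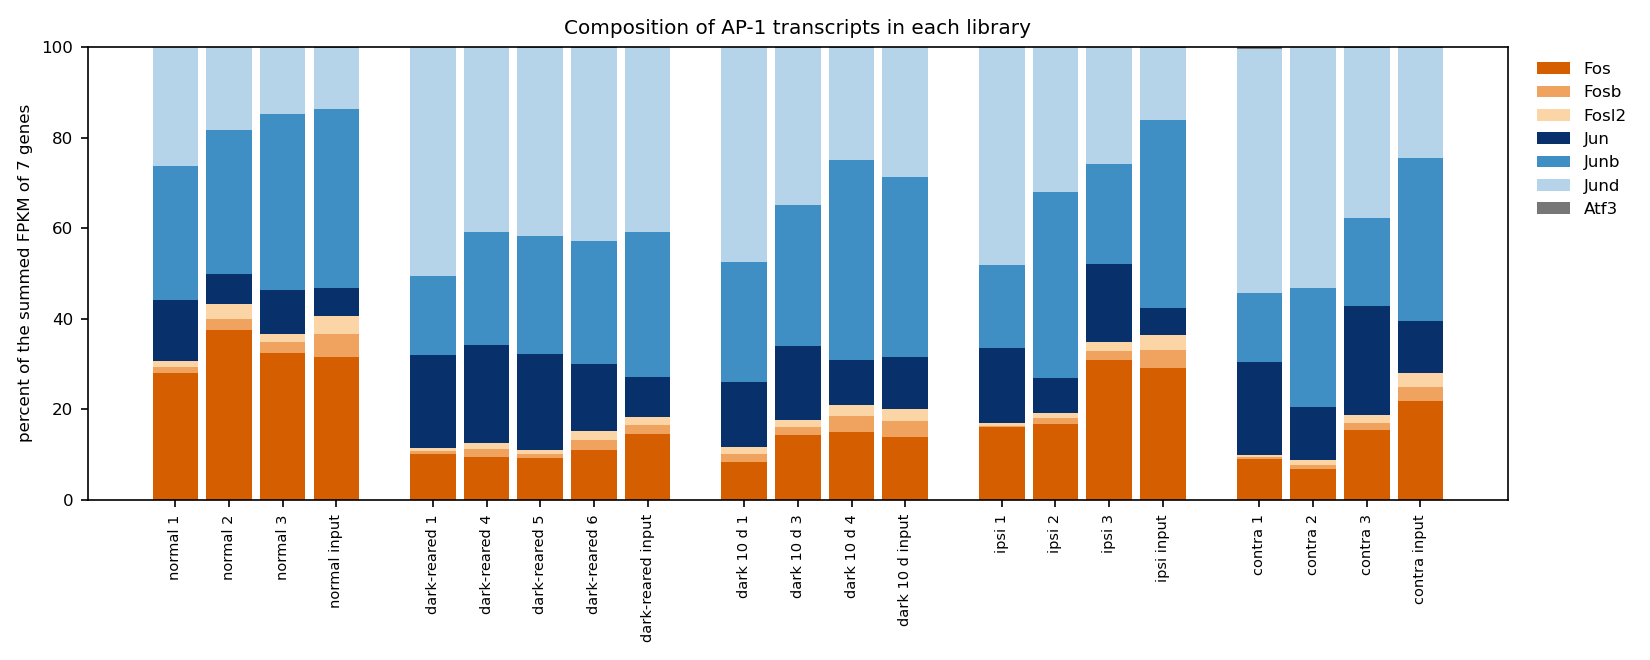
Share of each AP-1 gene in the summed FPKM of the 7 genes, as stacked bars from 0 to 100%, for each pulldown and input library by group. Orange shades (Fos, Fosb and Fosl2) filled 30.5% to 43.3% of the normally reared pulldowns and 10.8% to 15.1% of the dark-reared ones, where Jund (palest blue) took the largest share.

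Whether the tagged ribosomes were enriched for AP-1 transcripts was asked by setting pulldowns against inputs. They were not: all 6 tested genes fell in the pulldown, and Fos, Fosb, Fosl2 and Junb lay further down than Jun and Jund. In limma over 21 libraries, with the group as a term, log2 fold changes were -1.72 ± 0.25 (SE) for Fos, -1.89 ± 0.28 for Fosb, -1.76 ± 0.24 for Fosl2 and -1.79 ± 0.30 for Junb. They were -0.54 ± 0.17 for Jun and -0.73 ± 0.15 for Jund. The largest adjusted p of the 6 was 0.00659, for Jun. Lower calls were common: beside 6 of 6 members, 50.7% of 12070 genes were called lower, 26.4% higher and 77.1% in either direction. The median over all genes was -0.31. With quantile normalization, which brings that median to 0.01, 5 genes were called and Jun was not (adjusted p = 0.104). With median-ratio scaling 4 were called, without Jun (adjusted p = 0.222) and Jund (adjusted p = 0.0518). With the neuron marker mean as a covariate, whose values do not overlap between pulldowns and inputs, 1 gene was called, Junb, in the other direction at 2.61 ± 0.67, and Fos was at 0.53 ± 0.93.

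In Fos, Fosb, Fosl2 and Junb all 16 pulldowns lay below the input of their own group, which held for 39.4% of all genes tested. Jun lay below it in 14 of 16 pulldowns, the exceptions being normally reared replicate 3 and dark-reared replicate 5. Jund lay below it in 15, the exception being replicate 1 of the 10-day group. With 1 input per group, the ratio of a group has no replicate on the input side and no test. For Fos, the mean pulldown level was 47.2% of the input in normal rearing, 29.7% in dark rearing and 60.2% after 10 days of dark, but 14.9% contralaterally and 19.0% ipsilaterally. For Junb the same shares were 39.9%, 32.5%, 58.0%, 18.1% and 18.9%. Fosb ranged from 8.54% (ipsilateral) to 47.8% (10 days of dark) and Fosl2 from 10.4% to 44.4% in the same groups. For Jun and Jund they were higher throughout, 51.3% to 94.9% and 46.3% to 80.6%. By these means, over 1 input each, Fos, Fosb, Fosl2 and Junb had smaller shares at day 28 than in the older groups. The median log2 ratio over all genes was lower there too. It was -0.43 contralaterally and -0.40 ipsilaterally, -0.16 in normal rearing and -0.23 in each dark group. Ratios of single libraries overlapped for Junb, Fosb and Fosl2. Junb reached -1.50 ipsilaterally and -2.12 in dark rearing. Those of Fos did not overlap, at -1.93 or below at day 28 and -1.89 or above in the older groups.

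The ratios of neuron markers serve as a scale beside these. On the log2 scale with 1 FPKM added, the 16 neuron markers had median ratios from -3.41 in dark rearing to -2.50 in normal rearing. The highest ratio among them was -1.38 in normal rearing, -2.14 in dark rearing, -0.998 after 10 days of dark, -1.68 contralaterally and -1.63 ipsilaterally. Jun and Jund, at -1.09 or above, exceeded the highest neuron marker in all 5 groups. Fos did so in 3 groups, with -1.07 in normal rearing, -1.63 in dark rearing and -0.70 after 10 days of dark, and lay inside the neuron range in the deprived animals, at -2.58 contralaterally and -2.35 ipsilaterally. Junb exceeded it in the same 3 groups, at -1.31, -1.57 and -0.77. Fosb and Fosl2 exceeded it in 2 groups, dark rearing and 10 days of dark. Their dark-reared inputs were low, at 3.6 and 3.2 FPKM, and the added 1 FPKM limits how far such ratios can fall. For Fosl2 in dark rearing the outcome was fixed, since even empty pulldowns would have left it above the highest neuron marker. For Fosb in dark rearing it was nearly fixed. No member came near the astrocyte markers, whose lowest ratio in any group was 1.85. The part of each cell type in these ratios was not tested.

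**Figure D3:**
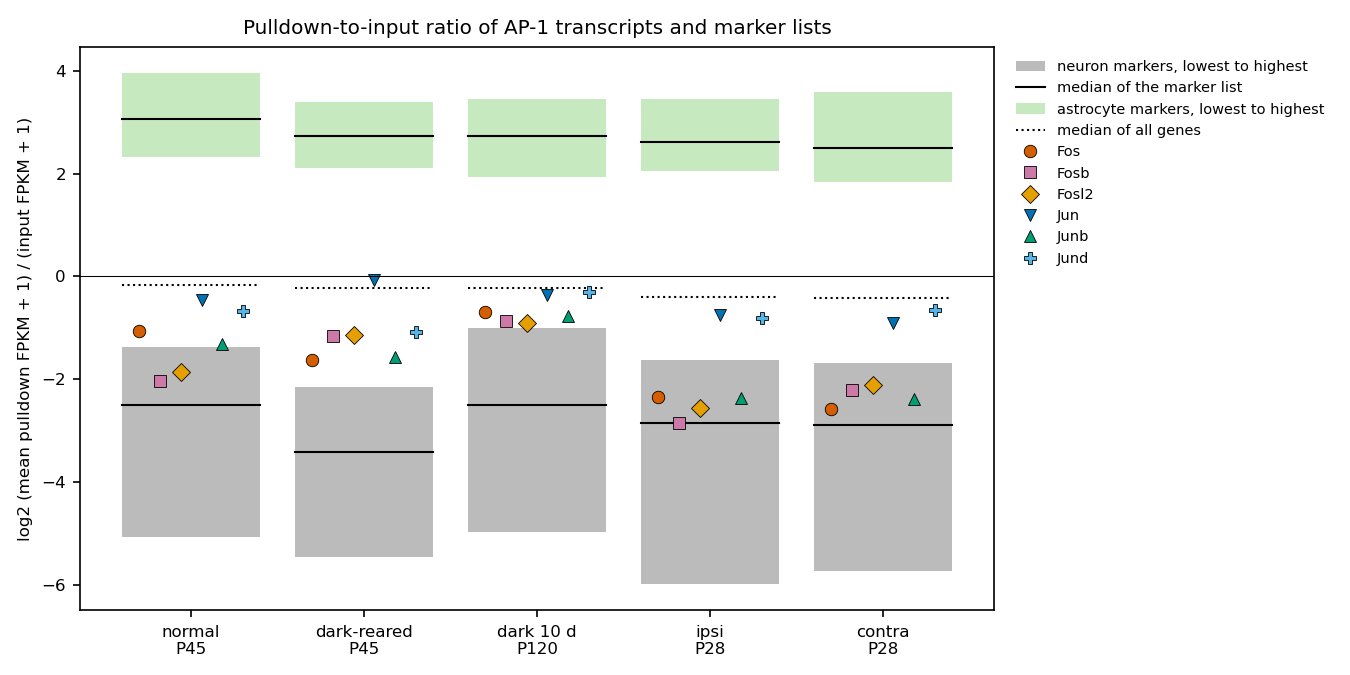
Log2 ratio of mean pulldown to input FPKM (1 FPKM added to both) of 6 AP-1 genes by group, with the range and median of 16 neuron markers in grey, those of 15 astrocyte markers in green, and the median of all genes dotted. Jun and Jund lay above the grey range in all 5 groups, and Fos and Junb lay inside it in the ipsilateral and contralateral groups.

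Dark rearing was set against normal rearing at the same age, day 45. Fos fell, Junb, Fosb and Fosl2 lay lower without passing the test, and Jun and Jund hardly differed. The log2 fold change of Fos was -2.64 ± 0.34 (95% interval -3.36 to -1.92, adjusted p = 0.0152 in limma), a 6.23-fold difference on the scale of the fit. The ratio of the group means in FPKM, without the added 1 FPKM, was 7.33. Fos was the 1 gene called of the 6 tested, and the 1 called of 11562 (0.00865%). Junb was at -1.52 ± 0.44, Fosb at -1.19 ± 0.38 and Fosl2 at -1.18 ± 0.33, each with an adjusted p of 0.866. Jun was at -0.06 ± 0.26 (interval -0.62 to 0.49) and Jund at 0.10 ± 0.23 (interval -0.40 to 0.60). An unadjusted p under 0.05 with a lower level was found for 4 of the 6, Fos, Fosb, Fosl2 and Junb, and for 4.83% of all genes. Groups did not overlap, with dark rearing lower, for Fos and Junb among the 6 and for 9.06% of all genes. Of the 6 values 5 were negative, as were 65.3% of all genes, and their median was -1.18, against -0.08 over all genes.

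Of 7 fits that each left out 1 library, 6 lost the call on Fos. It was lost without normally reared replicate 2 or 3 (adjusted p = 0.173 and 0.169 in limma) and without dark-reared replicate 1, 4, 5 or 6 (0.0855, 0.0916, 0.0653 and 0.0527). It held without normally reared replicate 1 (0.00933), and the fold change stayed between -2.97 and -2.33 in all 7 fits. Leaving out 1 library shrinks a group of 3 or 4. The inputs, 1 library each and not tested, differed in the same direction: Fos was 118.3 FPKM in normal and 25.7 FPKM in dark rearing, Junb 148.6 and 57.3, Fosb 19.0 and 3.6, and Fosl2 15.4 and 3.2. A log2 difference of -1 or lower between these inputs was found for these 4 of the 6 genes and for 6.34% of all genes. Jund was higher in the dark-reared input, 72.9 against 50.8 FPKM, and Jun lower, 15.8 against 23.3 FPKM. In such bulk RNA, fewer cells of a type and less RNA per cell cannot be told apart.

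Neuron markers moved with this comparison. Of the 15 that were tested 12 had lower values in the dark-reared pulldowns; their median was -0.74 (log2), and 0 were called. Summed over 16 markers they came to 465.7 to 1288 FPKM in normal and 285.6 to 463.6 FPKM in dark rearing, and 0 of the 16 were at 0 in all libraries of either group. Snap25, a synaptic vesicle fusion protein of neurons, was at -1.21 ± 0.66. With the neuron marker mean as a covariate, Fos was at -2.32 ± 0.36 (adjusted p = 0.231 in limma) and 0 of the 6 genes were called. Junb, Fosb and Fosl2 moved further in that fit, to -0.68 ± 0.25, -0.57 ± 0.30 and -0.74 ± 0.31. The mean log2 level of the neuron markers was 3.10 to 3.62 in the dark-reared pulldowns, a range that held normally reared replicate 1 (3.54) but not replicates 2 (4.04) and 3 (4.44). Replicate 1 had a neuron sum of 465.7 FPKM and 32.7 FPKM of Fos, and dark-reared replicates 6 and 4 had sums of 463.6 and 447.8 FPKM and 8.9 and 6.2 FPKM of Fos. The same 3 libraries had 34.7, 22.2 and 16.4 FPKM of Junb but 1.7, 1.9 and 1.1 FPKM of Fosb and 1.4, 1.5 and 0.9 FPKM of Fosl2. Among these 3 libraries Fos and Junb were highest in the normally reared one, and Fosb and Fosl2 in dark-reared replicate 6. The part of neuronal RNA in the differences was not tested. Astrocyte markers lay level, with a median of -0.02 over 15, and the 5 tested endothelial and mural markers were all positive, with a median of 0.70 and 0 called; their part in the AP-1 values was not tested.

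**Figure D4:**
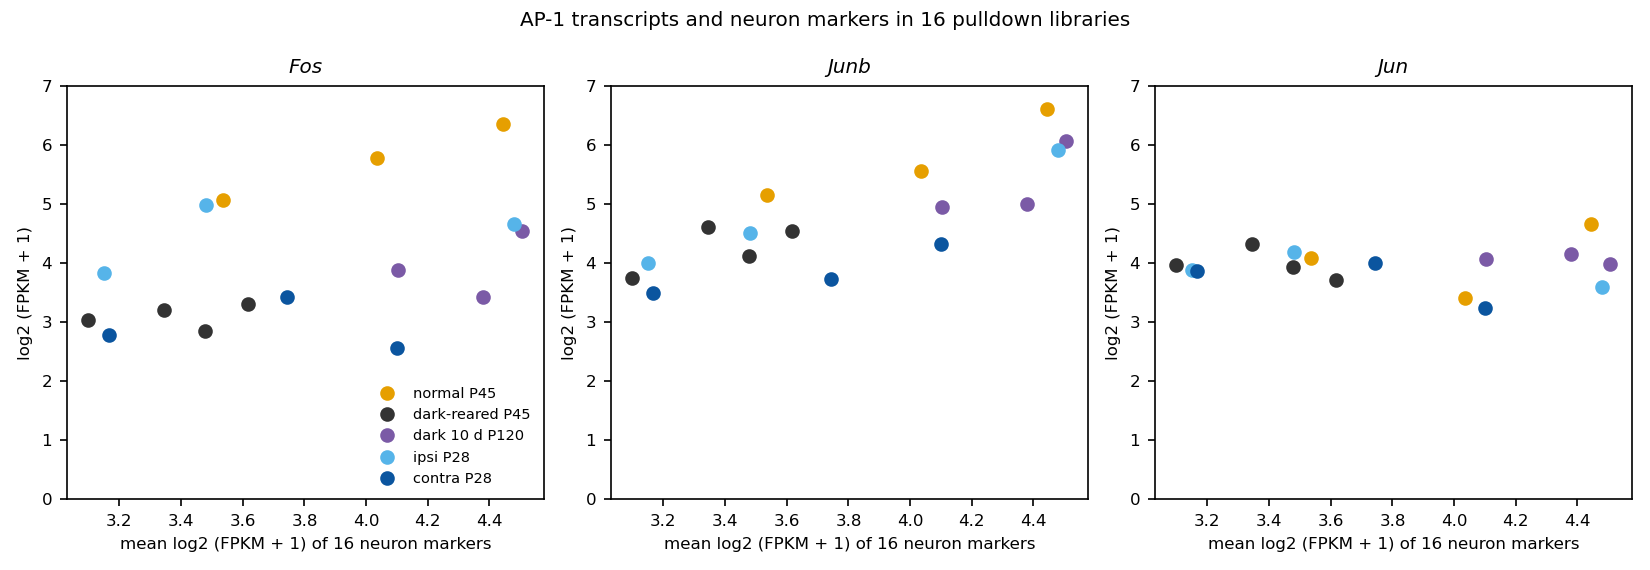
Log2 (FPKM + 1) of Fos, Junb and Jun in the 16 pulldown libraries against the mean log2 (FPKM + 1) of 16 neuron markers in the same library, coloured by group. For Fos, the 1 normally reared library inside the neuron range of dark rearing had 32.7 FPKM, against 6.2 to 8.9 FPKM in the dark-reared ones. Within normal rearing Fos rose with the neuron mean, at 32.7, 54.2 and 80.7 FPKM for 3.54, 4.04 and 4.44. Within the other groups it did not follow that order. Junb was higher where neuron markers were higher within 4 of the 5 groups, and Jun stayed between 8.4 and 24.2 FPKM.

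The cortex contralateral to the deprived eye was compared with the ipsilateral side, both of day 28, and the main fit took them as unpaired groups. Fos had the lowest contralateral values relative to the other side, Junb came next, and 0 genes passed, with 84 at an unadjusted p under 0.05. In limma the log2 fold change was -1.56 ± 0.36 for Fos (unadjusted p = 0.000624, adjusted p = 1), -0.97 ± 0.47 for Junb, -0.48 ± 0.41 for Fosb, -0.34 ± 0.36 for Fosl2, -0.19 ± 0.28 for Jun and -0.17 ± 0.25 for Jund. Calls numbered 0 among the 6 genes and 0 of 11562 (0%), and an unadjusted p under 0.05 with a lower level was found for 1 of the 6, Fos, and 0.605% of all genes. All 6 values were negative, as were 69.7% of all genes. Fos was also the 1 gene of the 6 whose sides did not overlap, which held in this direction for 1.37% of all genes.

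Libraries with the same number on the 2 sides deviated alike from their group means, and read by number the Fos difference was present in each pair: -1.04, -2.09 and -1.56 on the log2 scale for numbers 1, 2 and 3. Junb had -0.52, -1.59 and -0.78. Fosb had 0.00, -0.82 and -0.61 and Fosl2 had -0.10, -0.47 and -0.45. Jund lay lower contralaterally in each pair too, by small amounts, at -0.15, -0.26 and -0.11, and Jun at -0.02, -0.36 and -0.18. Number 2 gave the lowest value of all 6 genes. Its contralateral library had 14092 genes with a value above 0 FPKM, the fewest of any pulldown, and its ipsilateral library had 15355. Without both libraries numbered 2, an alternative chosen after the data were seen, Fos was at -1.30 ± 0.46 and Junb at -0.65 ± 0.47. With the number as a block in the fit over all pulldowns, Fos was at -1.56 ± 0.31 (adjusted p = 0.428 in limma). With the block and the 2 sides alone, also chosen after the data were seen, Fos was at -1.56 ± 0.19 (adjusted p = 0.154 in limma).

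Neuron markers did not separate the sides. Of 15 tested, 8 were negative, with a median of -0.03, and their sums were 315.1 to 822.2 FPKM contralaterally and 310.7 to 1157 FPKM ipsilaterally. In pair 1, where the sums were 315.1 and 310.7 FPKM, Fos was 5.9 FPKM contralaterally and 13.2 FPKM ipsilaterally. In pair 2 the contralateral library had the lower neuron sum, 822.2 against 1157 FPKM, and the lower Fos, 4.9 against 24.2 FPKM. In pair 3 the contralateral library had the higher neuron sum, 545.5 against 399.3 FPKM, and the lower Fos, 9.7 against 30.5 FPKM. Fos was at -1.55 ± 0.34 with the neuron marker covariate, and the part of neuronal RNA in these differences was not tested. All 8 oligodendrocyte markers and all 6 precursor markers lay lower contralaterally, with medians of -0.08 and -0.21 and 0 called; their part in the AP-1 values was not tested. The 2 inputs differed likewise, with 46.0 FPKM of Fos contralaterally and 119.4 FPKM ipsilaterally, 76.5 and 170.1 FPKM of Junb, 6.6 and 16.4 FPKM of Fosb, and 24.1 and 24.4 FPKM of Jun. A log2 difference of -1 or lower was found for 3 of the 6, Fos, Fosb and Junb, against 0.215% of all genes. Fos, Fosb and Junb were thus low in the contralateral input and in both dark inputs, with 1 library each and no test.

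Mice of day 120 with 10 days of dark were set against normal rearing at day 45, where age and darkness cannot be told apart. Fos lay lower in all 3 libraries of the dark group and did not pass the test, and the other genes lay closer to normal rearing. In limma Fos was at -1.79 ± 0.36 (interval -2.56 to -1.02, adjusted p = 0.124), Junb at -0.44 ± 0.47, Fosl2 at -0.43 ± 0.36, Fosb at -0.27 ± 0.41, Jun at 0.02 ± 0.28 and Jund at 0.38 ± 0.25. Calls numbered 0 of the 6, against 0.0865% of all genes in either direction and 0.00865% in the lower one. An unadjusted p under 0.05 with a lower level was found for 1 of the 6, Fos, and 0.813% of all genes, and 4 of the 6 values were negative, against 47.3% of all genes. Fos alone of the 6 had groups that did not overlap, which held in the lower direction for 4.6% of all genes. Fos was called in limma without the filter (adjusted p = 0.0490), after quantile normalization (0.0420), after median-ratio scaling (0.0332) and with array weights (0.0120). Over the fits that left out 1 library its adjusted p ran from 0.0790 to 0.582.

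Neuron markers lay the other way here, with all 15 tested positive, a median of 0.24, and sums of 772.2 to 1248 FPKM in the dark group. Replicate 1 of that group, with a neuron sum of 956.5 FPKM, had 9.7 FPKM of Fos, while normally reared replicate 2, with 696.9 FPKM, had 54.2 FPKM. With the neuron marker covariate Fos was at -1.96 ± 0.35, Junb at -0.88 ± 0.24, Fosl2 at -0.66 ± 0.30 and Fosb at -0.59 ± 0.29, and 0 of the 6 were called. Microglia markers were higher too, with 6 of 12 called and sums of 94.9 to 163.6 FPKM against 23.5 to 40.1 FPKM; the part of these cells in the AP-1 values was not tested. Astrocyte markers lay lower in 14 of 15, with a median of -0.26 and 0 called. In the inputs Fos was 25.3 FPKM after 10 days of dark, close to the 25.7 FPKM after dark rearing. Fosb was 6.2 FPKM, Fosl2 5.1 FPKM and Junb 72.8 FPKM in that input. With the normally reared input as the reference, a log2 difference of -1 or lower was found for these 4 of the 6 genes and for 0.614% of all genes. Both dark comparisons use the same 3 normally reared pulldowns and the same input, so they are not independent of each other.

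**Figure D5:**
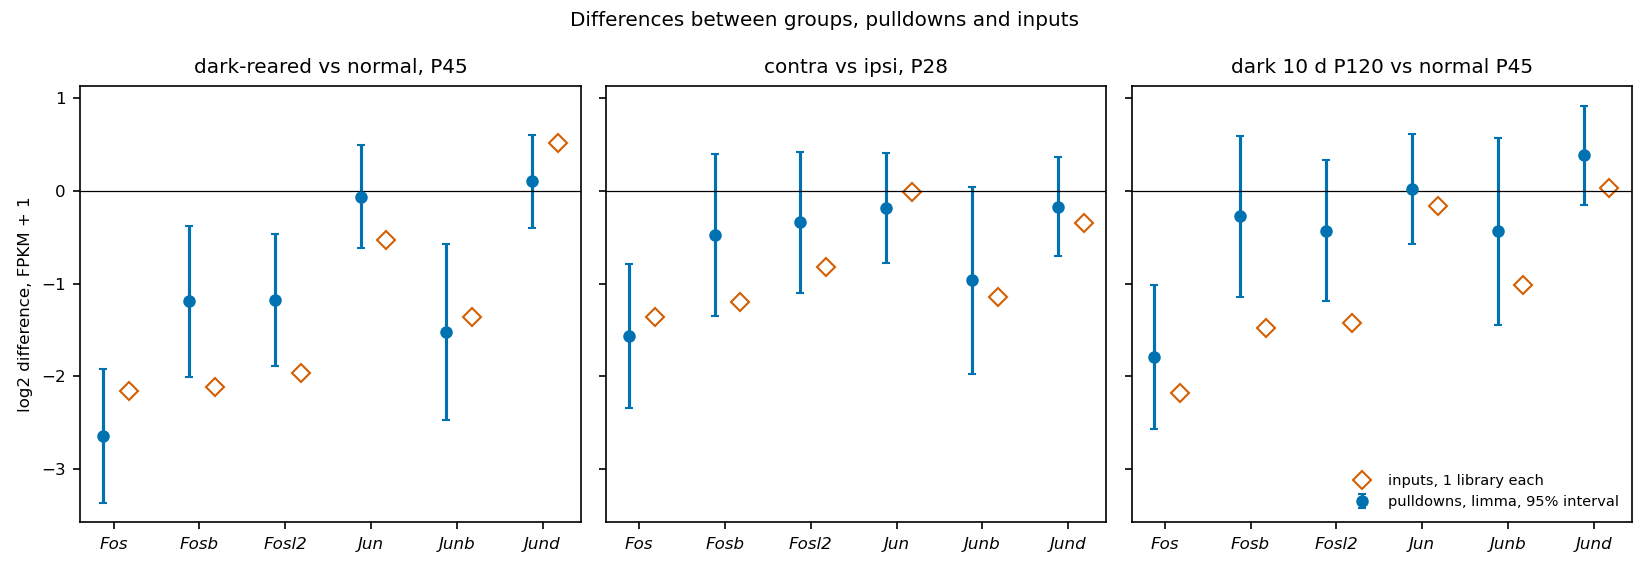
Log2 differences (FPKM + 1) of 6 AP-1 genes in 3 comparisons, with pulldowns as circles (limma, bars for the 95% interval) and the difference of the 2 inputs as diamonds without error. Fos was lowest among the pulldown values in each panel, at -2.64, -1.56 and -1.79, while Jun and Jund lay around 0.

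Dark rearing and deprivation were compared directly, as the effect of the first minus the effect of the second, in 4 groups that share no library and differ in age between the pairs. Fos had a difference of -1.08 ± 0.50 (unadjusted p = 0.0467, adjusted p = 1.00 in limma), Fosl2 of -0.84 ± 0.49, Fosb of -0.71 ± 0.56 and Junb of -0.56 ± 0.65. Jun was at 0.12 ± 0.38 and Jund at 0.27 ± 0.34. Calls numbered 0 of 6 and 0 of 11562 (0%), where 116 had an unadjusted p under 0.05 in limma, and 1 of the 6, Fos, and 0.614% of all genes had an unadjusted p under 0.05 in the lower direction. The 2 effects were therefore not shown to differ for any of the 6, in a fit with no term for the paired sides. Neuron markers differed in the same contrast with a median of -0.90 over 15, and with the neuron covariate Fosb was at -0.13 ± 0.41 and Junb at 0.24 ± 0.34.

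Around these 7 genes, 3 lists of the same pathway were read by counts. Of the 26 listed other AP-1 and related leucine zipper factors, 19 were tested, and 0 were called between pulldown groups. In dark rearing 16 of the 19 were negative, beside 65.3% of all genes, with a median of -0.19. Jdp2, a repressor that pairs with Jun, was at -0.45 ± 0.21 and Atf6, a sensor of endoplasmic reticulum stress, at -0.52 ± 0.28. In the deprived animals Atf1, a relative of CREB, was at 0.31 ± 0.15 and Atf4, of the integrated stress response, at -0.37 ± 0.23. There 12 of the 19 were negative, beside 69.7% of all genes. After 10 days of dark Cebpd was at -0.69 ± 0.32. Against input, 4 of the 19 rose and 11 fell, with a median of -0.53, where 26.4% of all genes rose and 50.7% fell. Nfe2l2, or Nrf2, the antioxidant regulator, rose by 1.88 ± 0.15, from 4.68 to 20.5 FPKM, while Atf2, a Jun partner, fell by 1.56 ± 0.14.

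Upstream of Fos and Jun, 22 kinases and cofactors were tested, with 0 called between pulldown groups. In dark rearing 18 of 22 were negative, beside 65.3% of all genes, with a median of -0.33. Srf, the serum response factor, was at -0.38 ± 0.16 (6.13 ± 1.10 FPKM in normal rearing, n = 3, and 4.45 ± 0.66 FPKM in dark rearing, n = 4), and Crtc1, a coactivator of CREB, at -0.56 ± 0.21. In the deprived animals 16 of 22 were negative, beside 69.7% of all genes, with a median of -0.07, near that of all genes, -0.06. After 10 days of dark 15 of 22 were positive and 7 negative, where 47.3% of all genes were negative. Among the positive were Rps6ka1, the kinase RSK1, at 0.46 ± 0.16 and Mapk3, the kinase ERK1, at 0.45 ± 0.16. Against input 18 of 22 fell and 0 rose, beside 50.7% and 26.4% of all genes. The Jun kinases Mapk8 and Mapk9 fell by 2.27 ± 0.17 and 2.07 ± 0.16 on the log2 scale, Map2k4, which activates them, by 2.19 ± 0.17 and Camk4, a calcium-dependent kinase of neurons, by 2.55 ± 0.20.

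Of 30 known AP-1 targets, 16 were tested between pulldown groups and 0 were called. Dusp1, a phosphatase that switches off MAP kinases and is an early gene itself, came nearest, at -1.64 ± 0.25 in dark rearing (adjusted p = 0.0599), -1.01 ± 0.27 on the contralateral side and -1.23 ± 0.27 after 10 days of dark. Penk, the precursor of enkephalin, was at -1.23 ± 0.49 in dark rearing, with 4.77 ± 2.84 FPKM in normal rearing and 1.33 ± 0.48 FPKM in dark rearing. The list as a whole did not lean down with Fos. In dark rearing 7 of 16 were negative, beside 65.3% of all genes, with a median of 0.06. Contralaterally 9 of 16 were negative, beside 69.7% of all genes, with a median of -0.04. Hbegf, a growth factor, was at -0.51 ± 0.31 contralaterally, and Cd44, a hyaluronan receptor, at -0.72 ± 0.28 after 10 days of dark. Against input 9 of 18 rose and 7 fell, beside 26.4% and 50.7% of all genes, with Gfap, the astrocyte filament, at 3.36 ± 0.14, Vim, its filament partner, at 2.60 ± 0.12 and Nqo1, a quinone reductase, at 2.24 ± 0.10, while Tac1, the precursor of substance P, fell by 2.17 ± 0.11.

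Across the 16 pulldowns the members formed a group that varied together and a pair that did not. On the log2(FPKM + 1) scale Fosb and Fosl2 had a Pearson r of 0.956 (0.917 after group means were removed), Fosb and Junb 0.910 (0.805), Fos and Fosl2 0.826 (0.828) and Fos and Junb 0.789 (0.588). Jun had an r between 0.01 and 0.29 with every other member and Jund between -0.16 and 0.26. Libraries share depth, neuron signal and group here, so these values are descriptions.

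The genes most like each member were taken as the 3 with the highest r over the 16 libraries, among 11016 genes that are not members. For Fos they were Dusp1 (r = 0.959, and 0.753 after group means were removed), Npas4, an activity-induced factor (0.906 and 0.741), and Bdnf, a neurotrophin (0.884 and 0.773). For Fosb they were Egr3, an early zinc finger factor (0.971 and 0.960), Pde4d, a cyclic AMP phosphodiesterase (0.952 and 0.897), and Rsc1a1 (0.948 and 0.896). For Fosl2 they were Slc25a25, a mitochondrial carrier (0.959 and 0.938), Arc, a synaptic early gene (0.945 and 0.944), and Nr4a3, an orphan nuclear receptor (0.943 and 0.941). For Junb they were Egr4 (0.943 and 0.950), Egr1 (0.925 and 0.889) and Galnt18, a glycosyltransferase (0.914 and 0.884). The neighbours of Fos thus lost more of their likeness than those of Fosb, Fosl2 and Junb when group means were removed.

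Jun and Jund had other neighbours. For Jun they were Sema4c, a semaphorin (0.895 and 0.886), Adamts1, a secreted protease (0.863 and 0.856), and Ephb3, an ephrin receptor (0.861 and 0.885). For Jund they were Rxrb, a retinoid X receptor (0.925 and 0.920), Stub1, a ubiquitin ligase (0.895 and 0.880), and Acbd6 (0.892 and 0.950). Without the 2 libraries farthest from the median of each member, the r of the 18 neighbours stayed between 0.732 (Sema4c with Jun) and 0.959 (Egr3 with Fosb).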

How the data were processed

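The authors deposited FPKM per gene and library, rounded to 0.1, for 24537 genes with 1 RefSeq transcript each. The submitters' processing notes name mm10, the aligner STAR 2.5.1b, HOMER 4.10, DESeq2, R 3.4.3, CASAVA 1.8.2 and FastQC 0.11.2, and their settings are not given in the sources used here. Of the columns, 21 were used, and 1 column of another sample was not. The members and gene lists were chosen with earlier results of these data known.

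Values were analysed as log2(FPKM + 1), which understates the change of low genes. The test was limma 3.58.1 in R 4.3.3 (robust eBayes with a trend, 2-sided), for genes averaging more than 1 FPKM in the fitted libraries, and p-values were adjusted by Benjamini-Hochberg over all genes, with a threshold of 0.05. Fits over 16 pulldowns shared 1 estimate of the spread. They were tested on simulated data. Errors of means are SD and errors of log2 fold changes SE. A group's ratio of pulldown to input was the log2 of its mean pulldown FPKM + 1 over its input FPKM + 1. Contralateral and ipsilateral libraries with the same number were read as pairs, since their deviations from the group means correlated at 0.802, 0.790 and 0.903 over 11562 genes. The main fits of deprivation and of the difference of effects had no term for these pairs. The numbers of the 10-day and normally reared libraries did not pair (0.218 and -0.08).

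Named genes were the 7 members, up to 4 genes past the threshold or else the 2 with the smallest p from each of 3 related lists per comparison, 4 gauge genes (Rpl22, Gfap, Aldh1l1 and Snap25), and 3 neighbours per member. Alternatives were no filter, a filter at 5 FPKM, pseudocounts of 0.1 and 5, median-ratio scaling, quantile normalization, a neuron marker covariate, array weights, a replicate block, the compared groups alone, inputs against group means, no group term and leaving out each library. Python 3.11.15, pandas 2.3.3 and matplotlib 3.10.9 were used. Promoters came from RefSeq on GRCm38.p6 and gene positions from GENCODE on GRCm38, both of the assembly of mm10.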

Additional observations from a re-analysis of the deposited data

How the results depend on the processing

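The 6 AP-1 genes gave 296 tested values under other settings than leaving out a library, of which 282 kept their direction and 273 also their side of the threshold. With the neuron marker covariate, whose values do not overlap between pulldowns (3.10 to 4.51) and inputs (6.85 to 7.15), 1 of 6 genes was called in that comparison (Junb at 2.61), Fos was at 0.53, Fosb at 1.16, Fosl2 at 0.48 and Jund at 0.16, and 0 were called in dark rearing, where Junb, Fosb and Fosl2 were at -0.68, -0.57 and -0.74, while Junb in the difference of the effects was at 0.24. Of the 6 genes 1, Fos, was called after 10 days of dark without the filter, with quantile normalization, with median-ratio scaling and with array weights. Jun in dark rearing was at 0.010 with quantile normalization, 0.030 with median-ratio scaling and 0.33 with array weights. After 10 days of dark Jun was at -0.014 with quantile normalization, -0.0035 with median-ratio scaling and -0.26 with the replicate block, and Fosb and Junb were at 0.13 and 0.070 with array weights. The median ratio of pulldown to input over 6 genes was -2.59, -1.03 and -1.79 contralaterally with pseudocounts of 0.1 and 5 and with median-ratio scaling, -1.65 and -0.76 in dark rearing with the 2 pseudocounts, and -1.62 ipsilaterally with a pseudocount of 5, and the ratio of Jun in dark rearing was 0.21 with median-ratio scaling. The cause of these shifts was not tested.

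Leaving out 1 library gave 6 calls in pulldown against input, 0 to 1 in dark rearing, 0 in deprivation, 0 after 10 days of dark and 0 in the difference. Over these fits Jun ran from -0.38 to 0.24 and Jund from -0.011 to 0.22 in dark rearing; Jun from -0.34 to 0.048 and Jund from -0.41 to 0.041 in deprivation; Fosb from -0.64 to 0.084 and Jun from -0.30 to 0.33 after 10 days of dark; and Jun from -0.20 to 0.43 in the difference. The replicate block changed no call on a member and left 0 of 6 in deprivation, in 10 days of dark and in the difference. Among all genes it gave 0, 4 and 1 calls there, against 0, 10 and 0 without the block. With the block and the 2 sides alone, a fit chosen after the data were seen, 1 of all genes was called. No paired analysis was possible for dark rearing because its groups share 1 number. Over all genes, array weights gave 27 calls in dark rearing and 258 after 10 days of dark, where no filter gave 73, a pseudocount of 5 gave 20, the neuron covariate 16, the filter at 5 FPKM 0 and the compared groups alone 1. In dark rearing the pseudocount of 5, the filter at 5 FPKM and both scalings gave 2 and the neuron covariate 0, and in pulldown against input the neuron covariate gave 1155 of 9300. Rounding to 0.1 FPKM limits Fosb and Fosl2 in the lowest libraries and leaves Atf3 unread.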
